A study of Homo sapiens with 8 samples.

Results

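Homeobox genes outside the HOX clusters were followed in HepG2 cells, an established human hepatic cell line, in which the activity of EZH1 and EZH2 was inhibited. The genes were taken by symbol, as the numbered members of the ALX, BARX, CDX, DLX, EMX, EN, GBX, HMX, IRX, ISL, LBX, LHX, MEIS, MEOX, MSX, NKX, OTX, PAX, PBX, PITX, PRRX and sine oculis subfamilies, and the LMX1 and PHOX2 genes. The rule found 61 of the 25603 genes of the expression table, in 22 of its 24 subfamilies, and 57 of the 61 are described and counted here. HepG2 cells were exposed for 4 days to UNC1999 and valemetostat tosylate, both at 1 µM and together called EZHi, or to vehicle alone, DMSO, given as 0.2% in the labels and differently in the methods of the study. There were 4 mRNA libraries per group, read as pairs of 150 bp, and all came from the same parental line without any genetic change. The comparison addresses how expression of these genes differs once EZH1/2 are inhibited.

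Homeobox genes encode transcription factors that bind DNA through a homeodomain and set positional and tissue identity in the embryo. Many are held silent outside their own lineage by the polycomb repressive complex 2 (PRC2), whose subunits EZH1 and EZH2 methylate lysine 27 of histone H3. They fall into classes by the sequence of the homeodomain: the ANTP class with its NK-like (BARX, DLX, EMX, EN, HMX, LBX, MSX, NKX) and HOX-like (CDX, GBX, MEOX) branches, and the LIM, PRD, TALE and SINE classes. PAX9 carries the paired DNA-binding domain of its family but no homeodomain, and was kept because the rule is by symbol.

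Levels are the deposited log2 values, corrected for transcript length, so that those of different genes can be set side by side, and "difference" means the log2 value in EZHi minus that in vehicle. An estimated FPKM was derived from these values, and the 37 genes of the family with a mean of at least 0.1 over all libraries were tested in limma together with all other such genes, 20153 in all. Genes with a Benjamini-Hochberg adjusted p under 0.05 over all 20153 genes are described as called. The study describes the replicates as biologically independent. The table carries no read counts, so depth is unknown and no counting interval can be given. In bulk RNA, more cells with a transcript and more transcript per cell cannot be told apart.

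The libraries correlated at 0.992 to 0.997 within groups and at 0.986 to 0.993 between them. All 7 liver markers examined (such as ALB, AFP and HNF4A) were at an estimated FPKM of at least 205 on average, and none of the 7 was called. The transcripts of EZH1, EZH2, EED and SUZ12 were not called, with differences from -0.11 to -0.06, which does not bear on enzyme activity. Among markers of other cell types, the mesenchymal genes ACTA2 and PDGFRB were at a mean estimated FPKM of 26.3 and 11.9, and the 4 mesenchymal markers in the table summed to between 32.8 and 42.1 in vehicle and between 41.9 and 46.9 in EZHi. The 3 neuronal markers summed to between 2.68 and 3.58 in vehicle and between 2.502 and 3.94 in EZHi. Of 3 endothelial markers, 2 (CDH5 and VWF) were called higher and PECAM1 was not, and their summed estimated FPKM went from between 2.26 and 2.72 in vehicle to between 3.42 and 7.21 in EZHi. Of the immune markers, CD3E was near 0, between 0.0510 and 0.0512 in vehicle and between 0.0624 and 0.0731 in EZHi. PTPRC and CD68 were absent from the expression data, as was the mesenchymal COL1A2. No mesenchymal or neuronal marker tested was called. What part these markers have in the results on homeobox genes was not tested.

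Promoter sequence is shown first for the genes on which the results turn: LMX1B, MEIS3 and the neighbours HMX2 and HMX3, which had the 4 largest differences, and DLX2 and DLX6, members of linked pairs of which the first rose and the second was not called. Each line gives the 250 bases before the transcription start, 5′ to 3′ on the strand of the gene, from RefSeq (GRCh38.p14), with every CG dinucleotide in capitals. The windows are chr9:126613678-126613927 (plus strand), chr19:47419528-47419777 (minus), chr10:123147886-123148135 (plus), chr10:123135720-123135969 (plus), chr2:172102901-172103150 (minus) and chr7:97005303-97005552 (plus).
LMX1B: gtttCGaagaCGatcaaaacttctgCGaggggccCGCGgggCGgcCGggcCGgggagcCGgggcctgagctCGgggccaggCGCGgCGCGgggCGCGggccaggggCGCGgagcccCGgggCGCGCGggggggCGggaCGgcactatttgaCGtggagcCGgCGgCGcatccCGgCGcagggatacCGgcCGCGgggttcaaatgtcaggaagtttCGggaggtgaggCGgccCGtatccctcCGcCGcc
MEIS3: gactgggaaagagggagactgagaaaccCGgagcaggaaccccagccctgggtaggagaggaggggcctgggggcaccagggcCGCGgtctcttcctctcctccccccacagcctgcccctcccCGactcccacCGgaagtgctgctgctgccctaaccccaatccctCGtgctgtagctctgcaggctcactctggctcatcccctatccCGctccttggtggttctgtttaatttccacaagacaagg
HMX2: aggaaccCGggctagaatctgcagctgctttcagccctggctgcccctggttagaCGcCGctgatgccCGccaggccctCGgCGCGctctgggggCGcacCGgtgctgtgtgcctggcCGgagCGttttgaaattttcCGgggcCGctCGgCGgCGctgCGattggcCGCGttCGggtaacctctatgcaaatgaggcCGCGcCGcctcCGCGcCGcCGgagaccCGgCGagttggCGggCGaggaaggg
HMX3: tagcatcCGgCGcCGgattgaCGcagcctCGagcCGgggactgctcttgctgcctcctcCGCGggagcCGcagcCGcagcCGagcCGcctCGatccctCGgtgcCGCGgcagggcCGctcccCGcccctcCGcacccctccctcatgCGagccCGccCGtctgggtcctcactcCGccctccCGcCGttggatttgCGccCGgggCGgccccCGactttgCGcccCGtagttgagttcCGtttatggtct
DLX2: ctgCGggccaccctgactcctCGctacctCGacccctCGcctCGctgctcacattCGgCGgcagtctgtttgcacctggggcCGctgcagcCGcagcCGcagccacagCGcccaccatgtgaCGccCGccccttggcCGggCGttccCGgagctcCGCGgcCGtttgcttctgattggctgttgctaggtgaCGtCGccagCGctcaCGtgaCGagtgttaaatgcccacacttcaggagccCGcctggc
DLX6: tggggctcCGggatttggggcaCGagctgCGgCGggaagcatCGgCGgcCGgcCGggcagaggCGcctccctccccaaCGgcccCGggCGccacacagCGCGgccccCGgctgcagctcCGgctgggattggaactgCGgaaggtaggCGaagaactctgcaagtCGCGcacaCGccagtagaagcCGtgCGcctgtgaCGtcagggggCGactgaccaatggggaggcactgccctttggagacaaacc
These windows held 38 CG dinucleotides for LMX1B, 7 for MEIS3, 31 for HMX2, 32 for HMX3, 25 for DLX2 and 25 for DLX6. CG, which reads the same on both strands, was present in 99.0% of 12004 windows of the same length before tested genes, with a median of 20 per window and quartiles of 12 and 28. DLX2, which rose, and DLX6, which was not called, had the same number of CG dinucleotides, and MEIS3 had the fewest of the 6. Of 2 entries for MEIS3, the window shown is that of the start nearest the 5′ end of the gene in GENCODE 44. Whether the number of CG dinucleotides is related to the differences was not tested. The promoter table used here held an entry for 41 of the 57 genes described, and promoter composition was not compared across the family.

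Of the 37 homeobox genes tested, 15 were higher in EZHi, 1 was lower and 21 were not called. Over all 20153 genes tested, 8.85% were called higher and 4.27% lower. At least 2-fold higher were 11 of the 37, against 3.21% of all genes, and none was at least 2-fold lower, against 0.0447%. The median difference was 0.36 over the 37 and -0.0077 over all genes tested. Since a gene that is high in EZHi passes a filter on the mean more easily, all 57 were also tested without any filter, and then 21 were higher and 1 lower, against 8.28% and 3.15% of all 25603 genes. None of the 15 called higher had a mean in vehicle under the filter. That does not show that the filter played no part, since low genes do not fall to 0 on this scale. LMX1B was at 0.104 in vehicle, and the uncalled MEOX1, with nearly constant vehicle values (1.77 to 1.83), at 0.136.

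Libraries of equal replicate number deviated together, and a fit with that number as a block called 20 of the 37 higher and 3 lower, including all 16 called without it. The block raised the share called over all genes from 13.1% to 30%, with 14.9% higher and 15.1% lower. Scaling moved the lower calls over all genes, since centring on well expressed genes (an estimated FPKM of 10 or more) gave 2550 higher and 319 lower in place of 1784 and 860. For the homeobox genes that centring gave 17 higher and 1 lower, against 12.7% and 1.58% of all genes, and quantile normalization 13 and 1, against 6.93% and 3.89%. Block and centring together gave 24 called, 22 higher and 2 lower, against 29.4% of all genes, 22.6% higher and 6.79% lower. The 4 EZHi libraries were all above the 4 vehicle libraries in 16 of the 37 and all below in 2, against 10.7% and 7.93% of all genes. A positive difference was seen in 31 of the 37 as deposited, in 33 with centring and in 23 with quantile normalization, against 48%, 68.7% and 38.3% of all genes under the same scalings. None of the 16 called genes changed sign under any alternative, and all 16 moved in their direction in 4 of 4 replicate pairs.

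**Figure D1:**
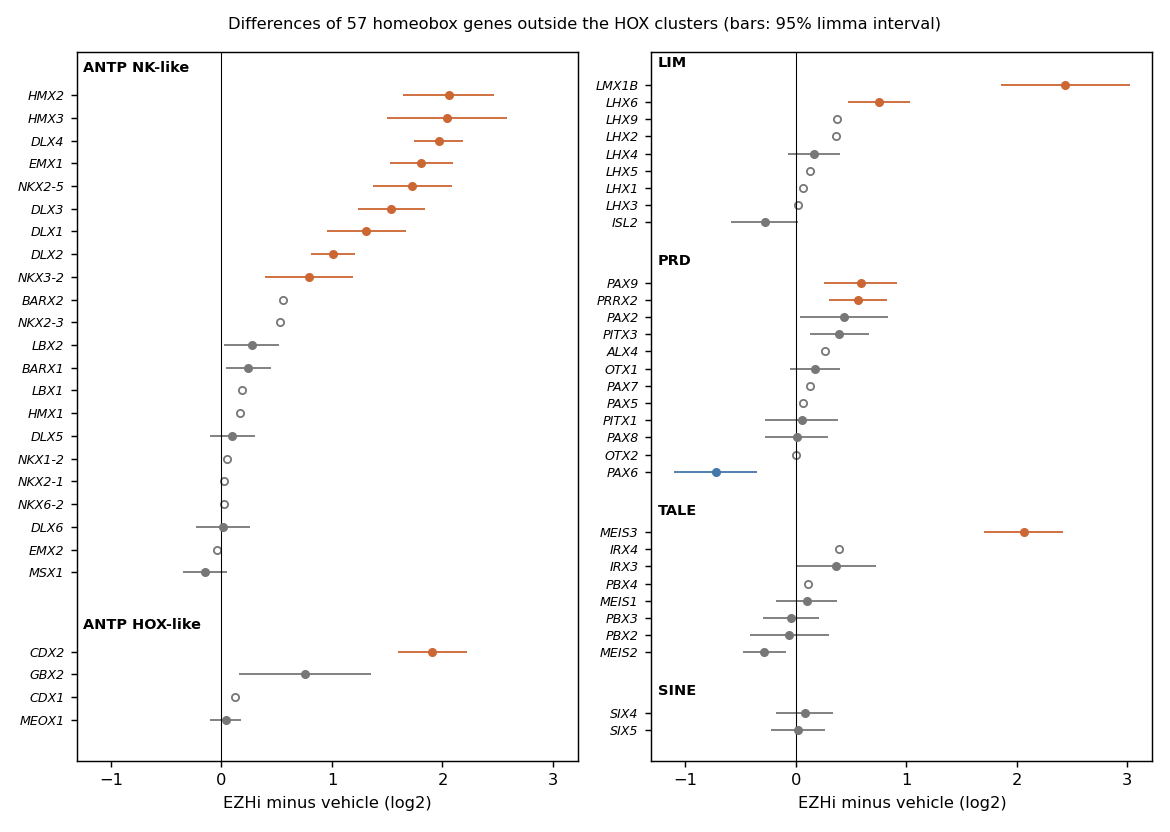
EZHi minus vehicle difference in log2 units (x axis) for each of the 57 homeobox genes by class (y axis), where filled points are the 37 genes tested, with 95% limma intervals and with orange for called higher, blue for called lower and grey for not called, while open circles are the 20 genes below the filter. The 15 orange points run from 0.56 (PRRX2) to 2.44 (LMX1B), and PAX6 is the blue point at -0.73.

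Genes of low level were called higher more often throughout the transcriptome, so the family was also read by level. Of 15 homeobox genes with a mean estimated FPKM from 0.1 to 1, 7 were higher, against 13.8% of all genes of that level. Between 1 and 10, 7 of 16 were higher and 1 was lower, against 11.3% and 2.25%. At 10 and over, 1 of 6 was higher and 0 were lower, against 2.73% and 9.16% (limma at adjusted p under 0.05 throughout). The single higher gene of that last class was DLX1. In vehicle cells, 10 of the 15 genes called higher had a mean estimated FPKM under 1, and the 15 ranged from 0.104 (LMX1B) to 10.4 (DLX1).

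**Figure D2:**
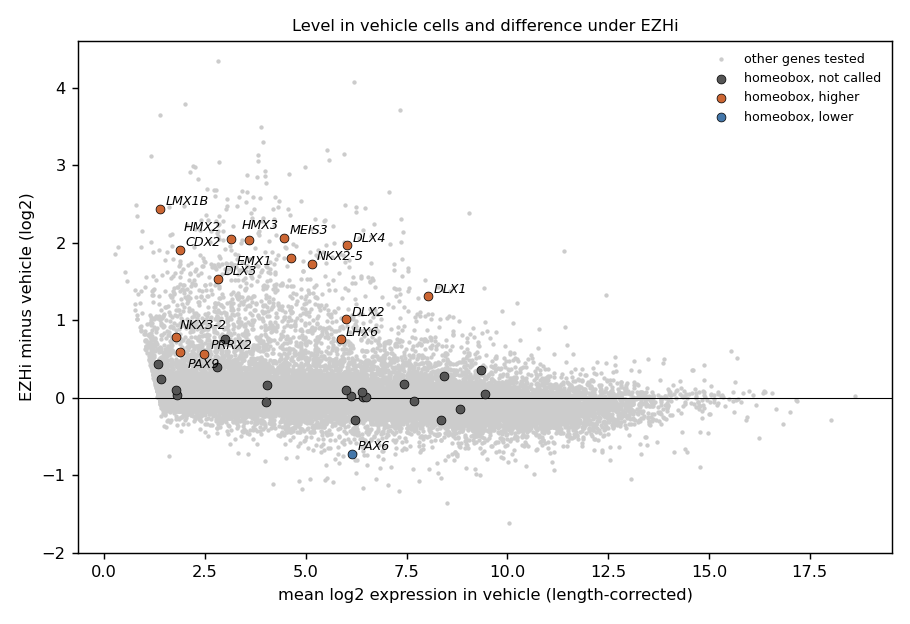
Mean length-corrected log2 value in vehicle cells (x axis) and EZHi minus vehicle difference in log2 units (y axis) for all genes tested (grey) and the 37 homeobox genes tested (dark grey not called, orange called higher, blue called lower). Orange points lie from 1.38 (LMX1B) to 8.03 (DLX1) in vehicle level, and the homeobox genes with the highest vehicle levels, PITX1 and IRX3, lie at 0.05 and 0.36.

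In the NK-like branch of the ANTP class, 9 of 14 genes tested were higher and none was lower, against 8.85% and 4.27% of all genes, with a median difference of 1.16. HMX2 and HMX3, which are needed for the vestibular inner ear and the hypothalamus, lie 8712 bases apart on chromosome 10. HMX2 was at 3.04, 2.998, 3.28 and 3.24 in vehicle replicates 1 to 4 and at 5.26, 5.66, 4.71 and 5.15 in EZHi replicates 1 to 4. It rose by 2.06 (SE 0.18, limma adjusted p 7.72e-05), or 4.16-fold. HMX3 was at 3.67, 3.85, 3.68 and 3.12 in vehicle and at 5.73, 6.21, 5.06 and 5.49 in EZHi, in the same order of replicates that is used from here on. It rose by 2.04 (SE 0.24, limma adjusted p 0.000432). In both genes every EZHi library was above every vehicle library, EZHi replicate 2 was the highest and EZHi replicate 3 the lowest of the treated libraries. The third gene of the subfamily, HMX1, was below the filter.

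The 6 DLX genes, which pattern the forebrain, the branchial arches and the limbs, stand in 3 linked pairs, and all 6 were tested. DLX1 and DLX2, which specify interneurons of the ventral forebrain, lie 9760 bases apart on chromosome 2. DLX1 was at 8.11, 8.41, 7.68 and 7.94 in vehicle and at 9.44, 9.59, 9.06 and 9.29 in EZHi, a rise of 1.31 (SE 0.16, limma adjusted p 0.000518). It was the most expressed of the homeobox genes called, at an estimated FPKM of 10.4 in vehicle and 25.6 in EZHi. DLX2 was at 6.04, 5.97, 5.88 and 6.08 in vehicle and at 7.01, 7.10, 6.95 and 6.95 in EZHi, a rise of 1.01 (SE 0.09, limma adjusted p 6.39e-05). The groups did not overlap in either gene, and the libraries of DLX2 were tight, with an SD of 0.09 in vehicle and 0.07 in EZHi (n = 4 each). Transcript DLX2-DT, which lies 105 bases away on the opposite strand, was also called higher, by 0.61 (SE 0.12, limma adjusted p 0.00693).

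DLX3, a gene of epidermis and tooth, and DLX4, known from placenta, lie 15045 bases apart on chromosome 17. DLX3 was at 2.86, 2.90, 2.80 and 2.76 in vehicle and at 4.56, 4.64, 4.07 and 4.201 in EZHi, a rise of 1.54 (SE 0.13, limma adjusted p 6.77e-05). DLX4 was at 6.21, 5.96, 5.85 and 6.06 in vehicle and at 7.91, 8.02, 8.11 and 7.92 in EZHi, a rise of 1.97 or 3.91-fold (SE 0.10, limma adjusted p 4.26e-06). Its adjusted p was the smallest of the family. Neither gene of the third pair, DLX5 and DLX6 on chromosome 7, was called. DLX6 was at 6.46, 6.61, 6.42 and 6.18 in vehicle and at 6.39, 6.42, 6.37 and 6.54 in EZHi, with a difference of 0.01 and a 95% interval from -0.23 to 0.25. Its mean level in vehicle was 6.42, against 6.02 for DLX4 and 5.99 for DLX2. DLX5 was low, between 1.56 and 1.92 in vehicle and between 1.79 and 1.96 in EZHi, with a difference of 0.10 (95% interval -0.10 to 0.30). Both differences turned negative with quantile normalization. Exons of DLX6-AS1 on the opposite strand cover 22.0% of the exon bases of DLX6, and that transcript was not called either (difference -0.07).

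EMX1 and NKX2-5 are known for the cerebral cortex and for the heart. EMX1 was at 4.93, 4.64, 4.50 and 4.45 in vehicle and at 6.42, 6.58, 6.30 and 6.44 in EZHi, a rise of 1.81 (SE 0.13, limma adjusted p 1.92e-05). NKX2-5 was at 4.84, 5.56, 4.91 and 5.28 in vehicle and at 6.77, 6.9952, 6.82 and 6.91 in EZHi, a rise of 1.73 (SE 0.16, limma adjusted p 9.3e-05). The lowest EZHi library exceeded the highest vehicle library by more than 1 log2 unit in both. NKX3-2, a gene of the axial skeleton, was low, at 1.78, 2.21, 1.56 and 1.55 in vehicle and 2.34, 2.77, 2.30 and 2.85 in EZHi. It rose by 0.79 (SE 0.18, limma adjusted p 0.0158), and lost the call without vehicle replicate 4 (difference 0.71, limma adjusted p 0.0519) and without EZHi replicate 4 (0.70 and 0.0511), within a range over all alternatives from 0.000533 to 0.0519.

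The remaining NK-like genes tested were not called. LBX2, at an estimated FPKM of 13.6 in vehicle, differed by 0.28 (limma adjusted p 0.144) and passed the threshold with the replicate block (0.0279, in a range of 0.00598 to 0.333 over the alternatives). It was higher in 4 of 4 pairs, and 28.6% of its exon bases are shared with LBX2-AS1 on the opposite strand, which was at a similar level and not called. BARX1 (0.24) and MSX1 (-0.15) had limma adjusted p of 0.116 and 0.341. BARX1 passed the threshold with centring (0.34, limma adjusted p 0.0286), with block and centring (0.0123) and without EZHi replicate 3 (0.33, 0.0118). MSX1, a gene of tooth and limb buds, was well expressed, between 8.74 and 8.87 in vehicle and between 8.51 and 8.91 in EZHi.

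**Figure D3:**
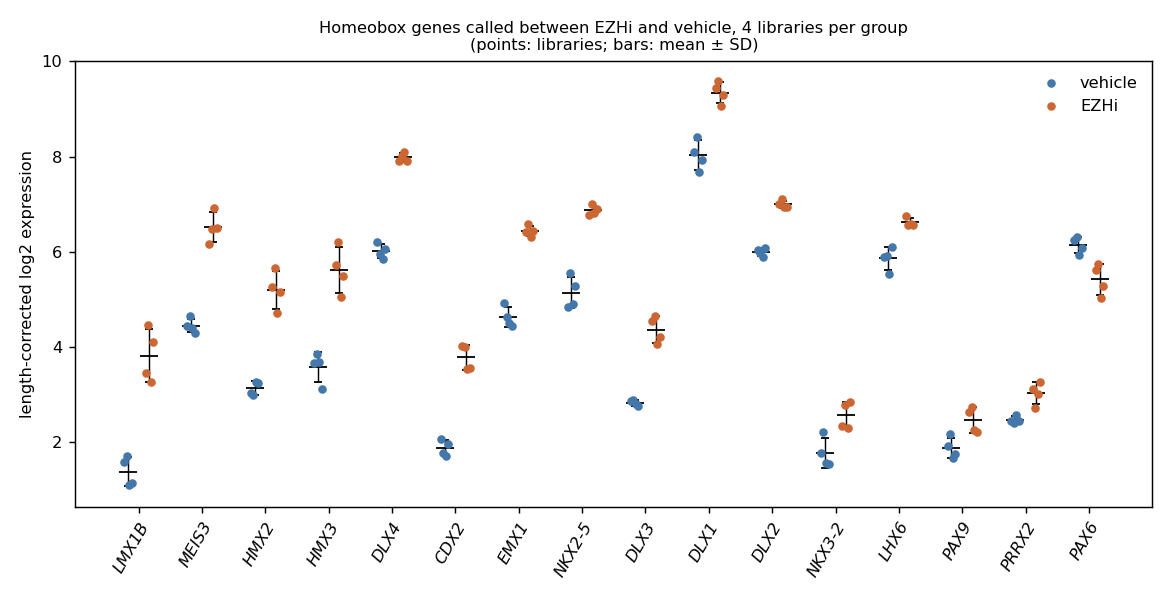
Length-corrected log2 expression (y axis) of the 16 homeobox genes called (x axis, ordered by difference), with points for libraries (blue vehicle, orange EZHi, 4 each) and bars for mean ± SD. The groups do not overlap in any of the 16 genes, and PAX6, at the right, is the one with EZHi below vehicle.

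Within the HOX-like branch, CDX2, the master regulator of intestinal epithelium, was at 2.06, 1.77, 1.71 and 1.97 in vehicle and at 4.03, 4.00, 3.55 and 3.57 in EZHi. It rose by 1.91 or 3.75-fold (SE 0.14, limma adjusted p 2.35e-05), reaching an estimated FPKM of 0.546. GBX2, which positions the boundary between midbrain and hindbrain, was at 3.35, 3.21, 2.67 and 2.73 in vehicle and at 3.92, 4.23, 2.96 and 3.89 in EZHi. The groups overlapped through EZHi replicate 3, and the difference of 0.76 (SE 0.27) had a limma adjusted p of 0.0977, or 0.00508 with the replicate block (range 0.00156 to 0.216 over the alternatives). Without EZHi replicate 3 it was called (1.02, limma adjusted p 0.00856). GBX2-AS1, whose exons cover 9.48% of those of GBX2 on the opposite strand, was called higher by 0.73 (SE 0.18, limma adjusted p 0.0228). MEOX1 differed by 0.04 and was not called.

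LIM homeodomain genes gave the largest difference of the family. LMX1B, which acts in dorsal limb, kidney podocytes and midbrain neurons (ENSG00000136944, hg38 chromosome 9, 126613928 to 126701032, plus strand), was at 1.59, 1.71, 1.09 and 1.14 in vehicle and at 3.45, 4.45, 3.27 and 4.12 in EZHi. It rose from 1.38 ± 0.31 to 3.82 ± 0.56 (SD, n = 4 each), by 2.44 or 5.43-fold (SE 0.26, limma adjusted p 0.000224), the 51st largest rise of 20153 genes. All EZHi libraries were above all vehicle libraries, although the estimated FPKM only went from 0.104 to 0.584. The divergent transcript LMX1B-DT, which lies 227 bases from LMX1B on the opposite strand, was called higher by 1.03 (SE 0.11, limma adjusted p 0.000222). LHX6, a gene of cortical interneurons, was at 5.90, 5.92, 5.54 and 6.09 in vehicle and at 6.75, 6.56, 6.59 and 6.56 in EZHi, a rise of 0.75 (SE 0.13, limma adjusted p 0.00345). ISL2, a motor neuron gene, was at 5.97, 6.46, 6.17 and 6.28 in vehicle and at 5.78, 6.21, 5.86 and 5.91 in EZHi. Its difference of -0.28 had a limma adjusted p of 0.219, or 0.034 with the replicate block, and ranged up to 0.42 over the alternatives. An unnamed gene on the opposite strand (ENSG00000259514), which covers 17.9% of its exon bases, was called lower by limma (-0.39, adjusted p 0.0188). LHX4 differed by 0.17 (limma adjusted p 0.355), and exons of ACBD6 on the opposite strand cover 30.7% of its exon bases.

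TALE proteins such as MEIS and PBX bind DNA together with HOX proteins and with each other. Of 6 tested, 1 was higher and none was lower, a count too small to read against the 8.85% of all genes called higher. MEIS3 (ENSG00000105419, chromosome 19, 47403124 to 47419527, minus strand) was at 4.45, 4.65, 4.40 and 4.30 in vehicle and at 6.17, 6.48, 6.93 and 6.49 in EZHi. It rose by 2.06 or 4.18-fold (SE 0.16, limma adjusted p 3.23e-05). Its paralogs were not called. MEIS1 was at 6.01, 6.23, 5.78 and 5.94 in vehicle and at 6.19, 6.16, 6.10 and 5.88 in EZHi, with a difference of 0.10 and a 95% interval from -0.18 to 0.37 that lay below that of MEIS3 (1.71 to 2.42). MEIS2 was at 8.33, 8.17, 8.48 and 8.41 in vehicle and at 8.09, 7.99, 8.17 and 8.01 in EZHi. Although its groups did not overlap, its difference of -0.28 (SE 0.09) missed the threshold (limma adjusted p 0.0576), passed it with the replicate block (0.0077) and without vehicle replicate 2 (-0.34, 0.0283), and reached 0.2 among the alternatives. The estimated FPKM of MEIS2 was 12.8 in vehicle and 10.5 in EZHi, and that of MEIS3 was 0.859 and 3.64.

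PBX3, with an estimated FPKM of 8.07 in vehicle, differed by -0.04 (95% interval -0.30 to 0.21), and PBX2 by -0.06 (-0.42 to 0.30). Both signs turned positive with centring. IRX3, the most expressed homeobox gene of the family after PITX1 in vehicle, was at 9.29, 8.97, 9.53 and 9.61 in vehicle and at 9.58, 9.49, 10.08 and 9.71 in EZHi. Its difference of 0.36 was not called (limma adjusted p 0.186), passed with the replicate block (0.00666) and ranged up to 0.371 over the alternatives.

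PRD class genes went both ways. PAX9, a gene of pharyngeal pouches and teeth, was at 1.92, 2.16, 1.67 and 1.75 in vehicle and at 2.64, 2.75, 2.26 and 2.22 in EZHi, a rise of 0.59 (SE 0.15, limma adjusted p 0.0269). This call was lost in 5 of the 8 fits that left out a library (without vehicle replicates 1, 3 or 4, or EZHi replicates 1 or 2), where the difference ran from 0.50 to 0.60, and with quantile normalization, with an adjusted p of up to 0.0995. Exons of SLC25A21 on the opposite strand cover 25.4% of the exon bases of PAX9, and SLC25A21 was itself called higher by 1.13 (SE 0.16, limma adjusted p 0.00122). Reads were counted without strand, and those over exons shared by both genes were assigned to neither. PRRX2, a gene of limb and craniofacial mesenchyme, was at 2.45, 2.41, 2.58 and 2.44 in vehicle and at 3.12, 2.71, 3.02 and 3.26 in EZHi, a rise of 0.56 (SE 0.12, limma adjusted p 0.0108) that missed the threshold with quantile normalization (0.0528, the highest over the alternatives).

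PAX6, a master gene of eye, brain and pancreatic islets (ENSG00000007372, chromosome 11, 31784779 to 31817961, minus strand), was the only homeobox gene of the family called lower in the fit of all 8 libraries without the block. It was at 6.24, 6.32, 5.93 and 6.09 in vehicle and at 5.63, 5.74, 5.02 and 5.29 in EZHi. It fell by 0.73 on the log2 scale (SE 0.17, limma adjusted p 0.0187), in 4 of 4 pairs, and every EZHi library was below every vehicle library. The call was lost without vehicle replicate 1 (-0.69, limma adjusted p 0.0561), without vehicle replicate 2 (-0.67 and 0.0514) and without EZHi replicate 4 (-0.68 and 0.0615), and with the block the adjusted p was 0.000702, the lowest over the alternatives. Exons of ELP4 on the opposite strand cover 25.4% of the exon bases of PAX6, and ELP4 differed by -0.06 without being called.

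Other PRD genes were not called. PAX2, a kidney gene, was low and differed by 0.44 (limma adjusted p 0.146, 0.0028 with the replicate block, range 0.000661 to 0.313), and PITX3, a gene of lens and dopaminergic neurons, by 0.40 (0.0557, 0.0194 with the block, 0.0177 with centring, 0.0443 without EZHi replicate 1, range 0.00574 to 0.287). Both were higher in 4 of 4 pairs. PITX1, a hindlimb gene, was among the most expressed, between 9.07 and 9.66 in vehicle and between 9.19 and 9.74 in EZHi, with a difference of 0.05 (95% interval -0.28 to 0.39). PAX8, a thyroid and kidney gene, differed by 0.01 (-0.28 to 0.29) and OTX1 by 0.17 (-0.06 to 0.40). OTX1 was called with block and centring together (0.27, limma adjusted p 0.0156). Exons of PAX8-AS1 on the opposite strand cover 22.4% of the exon bases of PAX8.

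Of the SINE class, SIX4 and SIX5 were not called. SIX4 differed by 0.08 (95% interval -0.18 to 0.34) and SIX5 by 0.02 (-0.23 to 0.27). The differences of SIX4 and SIX5 turned negative with quantile normalization. Exons of an unnamed gene (ENSG00000259605) on the opposite strand cover 57.1% of the exon bases of SIX5.

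**Figure D4:**
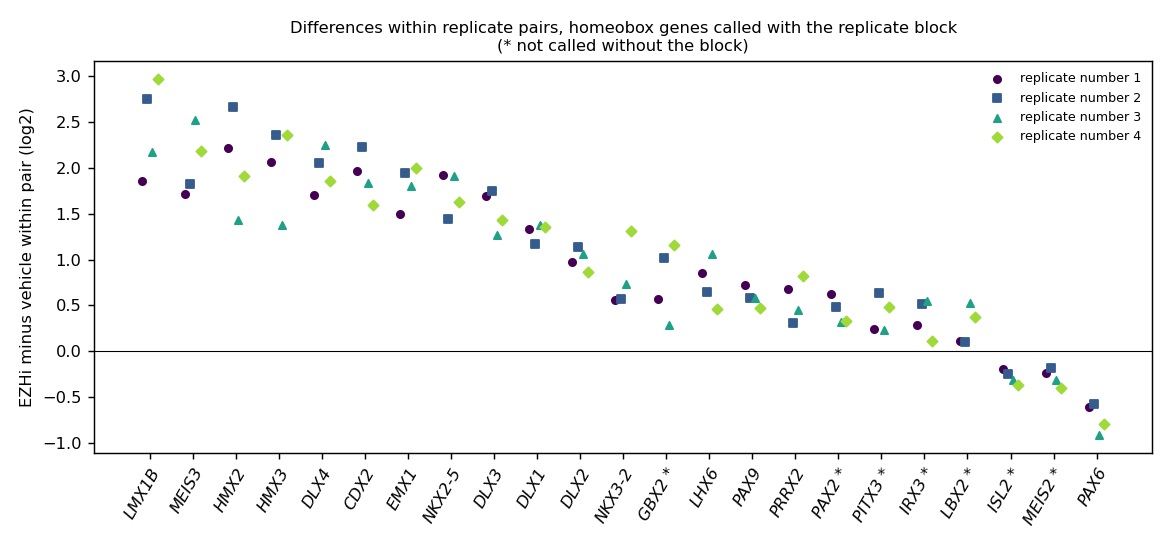
EZHi minus vehicle difference within each pair of libraries of equal replicate number, in log2 units (y axis), for the 23 homeobox genes called with the replicate block (x axis), where marker shape gives the replicate number and asterisks mark the 7 genes not called without the block. All 4 pairs are above 0 in 20 genes and below 0 in ISL2, MEIS2 and PAX6.

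Neighbouring genes of the family were set side by side. Of the 4 pairs within 100000 bases of each other, both members were higher in DLX1 with DLX2, DLX3 with DLX4, and HMX2 with HMX3, and neither was called in DLX5 with DLX6. No pair held a called and an uncalled gene. Around the 15 genes called higher, 39 other genes were tested within the same distance, and 6 of these were higher and 1 lower, with a median difference of -0.06. The 6 were SLC8A2, C5AR2, PTGES, SLC25A21, LMX1B-DT and DLX2-DT, at 0.61 to 1.13. Around the 22 tested genes not called higher, 4 of 71 neighbours were higher and 3 lower. The share over all genes tested was 8.85% higher.

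The 20 genes below the filter were CDX1, BARX2, EMX2, HMX1, LBX1, NKX1-2, NKX2-1, NKX2-3, NKX6-2, LHX1, LHX2, LHX3, LHX5, LHX9, ALX4, OTX2, PAX5, PAX7, IRX4 and PBX4. Their library values lay between -2.11 and 1.53. In 12 of them the 4 vehicle values lay within 0.02 of each other, so that the vehicle values of these 12 carry little information. None of the 37 genes tested met that limit, but MEOX1 and BARX1 were also nearly constant. MEOX1 lay between 1.77 and 1.83 in vehicle, and BARX1 between 1.3911 and 1.3998 in vehicle replicates 1, 3 and 4. Differences ran from -0.04 (EMX2) to 0.55 (BARX2). In 8 genes all EZHi libraries were above all vehicle libraries, against 10.6% of all genes in the table. BARX2, HMX1, NKX2-3, PAX7 and IRX4 of these 8 are among the 12, and the 10.6% covers genes of all levels. The count was thus not set against genes of like level. Tested without a filter, 6 of the 20 were higher, against 8.28% of all 25603 genes. With limma adjusted p in brackets, IRX4, a gene of the cardiac ventricle, rose by 0.39 (0.0013). NKX2-3, a gene of gut and spleen, rose by 0.53 (0.00587), and BARX2 by 0.55 (0.0175). ALX4, a craniofacial gene, rose by 0.27 (0.0194), LHX9, a gene of the gonad, by 0.37 (0.0222), and PAX7, the muscle stem cell gene, by 0.13 (0.0342). IRX4 was at 0.69 ± 0.0047 in vehicle and 1.08 ± 0.08 in EZHi (SD, n = 4 each). IRX4, NKX2-3, BARX2 and PAX7 are among the 12 genes above, so their adjusted p rests on vehicle values that carry little information. LHX9 was nearly constant in vehicle replicates 1, 3 and 4, between -0.356 and -0.353. The other 31 of the 92 symbols of the annotation that match the rule were absent from the expression data. They include all EN and PHOX2 genes, IRX1, IRX2, IRX5, IRX6, SIX2, SIX3, SIX6 and NKX2-2. They therefore stand in no share given here, also not in the fit without a filter.

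Homeobox genes that the symbol rule does not take were then counted, from a list of 91 symbols. There were 57 in the expression data and 38 passed the filter, of which 10 were higher and 0 lower, against 8.85% and 4.27% of all genes, with a median difference of 0.15. Without a filter 13 of the 57 were higher and 0 lower, against 8.28% and 3.15%, and 14 and 3 of the 38 when the block was used, against 14.9% and 15.1%. TLX1, a gene of spleen development, rose from 4.23 ± 0.37 to 6.82 ± 0.13 (SD, n = 4 each), by 2.60 (SE 0.18, limma adjusted p 1.59e-05). ISX, an intestinal gene, rose by 2.32 (SE 0.18, 3.71e-05), and SATB1, an organizer of chromatin, ZFHX4 and SHOX2, a gene of the sinoatrial node, by 1.74, 1.62 and 0.93.

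Protein partners of the family were counted from a list of 22 symbols, namely the EYA and DACH partners of SINE class proteins, the LDB, LMO and SSBP partners of LIM proteins, the TLE corepressors and PBXIP1. Of 15 tested, 6 were higher and 0 lower, against 8.85% and 4.27% of all genes, with a median difference of 0.08. The block gave 7 and 1, against 14.9% and 15.1%, and 5 of the 20 in the table were higher without a filter, against 8.28%. Groucho corepressors TLE4, TLE2 and TLE3 rose by 1.71, 1.15 and 0.45, with limma adjusted p of 0.000289, 0.00275 and 0.0033. The other TLE genes tested were not called, with differences of -0.19 for TLE1 (limma adjusted p 0.391, 0.0128 with the block), -0.09 for TLE5 and -0.19 for TLE6, and TLE1 and TLE5 were the most expressed of the 6, at a mean estimated FPKM of 125 and 103. They are named here after their values were seen. TLE4 went from 3.16 ± 0.32 to 4.88 ± 0.30 and TLE2 from 4.97 ± 0.33 to 6.12 ± 0.25 (SD, n = 4 each). LMO2, a LIM-only protein of blood and endothelium, rose by 1.66 (SE 0.31, limma adjusted p 0.00594), with an SD of 0.75 in EZHi against 0.03 in vehicle, and SSBP2 by 0.80 (SE 0.09, 0.000244).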

How the data were processed

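Gene expression was measured by RNA-seq in 8 HepG2 libraries, 4 per group, and groups and replicate numbers came from the sample titles. The members and lists were chosen with earlier results of these data known. Of the 61 members, 4 are not reported here and stand in no count or figure of the family, while the fits and adjustments cover all genes. Per the study's methods section, the authors aligned reads to hg38 (Hisat2), counted them over exons with HTSeq in union mode without strand, where reads over exons of more than 1 gene go uncounted, removed genes with under 10 reads in all, and took the regularized log of DESeq2 corrected for mean transcript length. The submitters' processing notes list HISAT2 2.2.1, HTSeq 0.9.1 and DESeq2 1.40.2. The deposited values are therefore on a log2 scale (-6.81 to 19.01), although the table is named as FPKM, and the regularized log shrinks differences of low genes, so that their folds are understated.

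One repeated row of 25604 was dropped. Values were multiplied back by the mean transcript length in GENCODE 44 (hg38), and the resulting sums of normalized reads differed little between libraries (24.4 M to 27.3 M). Estimated FPKM are relative to their mean (25.6 M). This scale does not give the depth of a library. A mean of 0.1 or more on this scale was required, and limma 3.58.1 in R 4.3.3 was fitted with group alone (lmFit, eBayes with trend, two-sided p adjusted by Benjamini-Hochberg over all genes tested). The fit was tested on simulated data. Deviations from the group means correlated between libraries of equal number at 0.31, 0.56, 0.63 and 0.22 for replicates 1 to 4, taken over the genes tested, so a fit with the replicate number as a block was run beside it. Other alternatives were no filter, a filter of 1, pseudocounts of 0.1 and 0.5, quantile normalization, centring on genes at an estimated FPKM of 10 or more, no trend in the prior, and leaving out each library. The block together with centring was added after seeing the data. All called members were given with every library value, and uncalled ones by difference or range, and of the other homeobox genes and the partners the 5 called ones of each with the largest difference were named. Of the 37 tested members, 15 share exon bases with another annotated gene in GENCODE 44, and the larger overlaps are named beside the member. The others include MEIS1 (13.1%) and PBX2 (15.2%), where the overlapping gene was absent from the expression data, and PITX1 (8.51%) and EMX1 (5.77%). Exon overlaps and distances were taken from GENCODE 44, and python 3.11.15 with pandas 2.3.3 was used.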

Additional observations from a re-analysis of the deposited data

Results flagged for a closer look

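Each gene's 4 libraries of a group were examined for a single deviating value, by Dixon's ratio of the gap beside the extreme value to the whole range, at its 95% critical value. This was met in 2 of the 74 groups of values of the 37 genes tested, and chance gives about 3.7 (1 in 20 groups). PBX2 was at 4.39 in vehicle replicate 3, against 3.86 to 3.90 in the other vehicle libraries (a gap of 0.925 of the range). BARX1 was at 1.48 in vehicle replicate 2, against 1.3911 to 1.3998 (0.9001 of the range). EZHi replicate 3, at 1.394, lay in that same narrow range, and such nearly constant values carry little information. Neither gene was called.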

How the results depend on the processing

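The number of genes of the family called was 16 (15 higher, 1 lower, 11 with at least 2-fold change), and ranged from 14 to 18 (13 to 17 higher, 0 to 1 lower, 10 to 12 with 2-fold change) across the 8 fits that each left out a library. Of the 16, 13 kept the call in all 8 fits, and NKX3-2, PAX6 and PAX9 lost it in at least 1. A filter of 1 gave 9 called (8 higher, 7 with 2-fold change) of the 22 genes of the family that it kept, since it leaves out low genes. Over all genes that filter gave 1579 called, among 5198 with an estimated FPKM from 1 to 10 and 7809 at 10 and over. A pseudocount of 0.5 gave 7 with 2-fold change, since it compresses low values. With the replicate block 3 were lower, and with block and centring together 24 were called, 22 higher and 2 lower. All genes called numbered 2644, against 1579 with the filter of 1, 6051 with the block, 5917 with block and centring, and 1811 to 2571 with a library left out. Other homeobox genes called numbered 10, against 5 with the filter of 1, 17 with the block, 20 with block and centring, and 9 to 11 with a library left out. Partner genes called numbered 6, against 3 with the filter of 1, and 5 to 6 with a library left out. Differences that changed sign belonged to uncalled genes, and the cause was not tested. With quantile normalization they were DLX5 (-0.0326), DLX6 (-0.103), LHX4 (-0.0448), MEIS1 (-0.0407), MEOX1 (-0.0986), PAX8 (-0.104), SIX4 (-0.0372) and SIX5 (-0.119), and with centring, with or without the block, PBX2 (0.0379) and PBX3 (0.0516). With a library left out, DLX6 ranged from -0.0679 to 0.0769, PAX8 from -0.0721 to 0.0737, PBX2 from -0.136 to 0.0696, PBX3 from -0.112 to 0.0309, PITX1 from -0.0747 to 0.155 and SIX5 from -0.0435 to 0.0988. Among the 37 genes tested, the block changed no call other than those of the 7 genes given with it in the report. Values are normalized for depth, so what depth limits cannot be stated beyond the floor of the low genes.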
